A study of Mus musculus with 6 samples.

Results

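The cytosolic ribosomal protein genes are the genes for the proteins that join with ribosomal RNA to form the large (60S) and small (40S) ribosomal subunits. They were taken by symbol: Rpl or Rps followed by a digit, or Rplp0, Rplp1, Rplp2 or Rpsa, leaving out pseudogene symbols and the Rps6k kinases, with a mean over the 6 libraries of at least 10 CPM, which are counts scaled to the library total. This gave 82 genes of the 30386 in the table and of the 7464 that reach the same minimum, 48 with large subunit symbols and 34 with small subunit symbols. The symbol pattern alone fits 86 genes. The 4 under the minimum were Rpl29 at a mean of 3.73 CPM, Rpl39l at 1.51 CPM, Rpl3l at 1.0 CPM, with counts in WT replicate 2 alone, and Rpl10l with no count in any library. The member nearest above the minimum was Rps27rt at 10.3 CPM.

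Of 79 ribosomal proteins on a textbook roster, 76 are among the 82 genes, 45 of 47 for the large and 31 of 32 for the small subunit. Rpl29 is the roster gene under the minimum, and Fau, whose product is a fusion of a ubiquitin-like protein with a ribosomal protein, is among those outside the symbol rule. The other 6 genes are the paralogs Rpl22l1, Rpl36al, Rps27l and Rps27rt, and Rpl7l1 and Rps19bp1, which the symbol rule takes although their products are not known as core proteins of the mature ribosome.

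RNA was measured in epidermis from the back skin of mouse embryos at E18.5, freed from the dermis with Dispase and dissociated with Accutase. Wild type (WT) was compared with the genotype labelled p63alphaKO, each with 3 libraries; p63 is a transcription factor of stratified epithelia, made in isoforms of which the alpha forms have the longest carboxy terminus. The sources used here give neither how the allele was made nor whether it acts in every cell, the strain or the sex, and nothing there says that the libraries of a group came from separate embryos, so p-values measure only the spread between these libraries. The assay, 3' digital gene expression (3'DGE), counts transcript ends, so levels need no division by transcript length. Depth ran from 2564407 to 4474764 reads per library. Keratinocyte markers were abundant, with spinous genes summing to between 75257 and 95306 CPM and basal genes to between 3676 and 6463 CPM. Genes of tissue under the epidermis were present too, mainly in WT: fibroblast genes summed to 5592 CPM in WT replicate 1, above its basal sum of 3676 CPM, and skeletal muscle genes to 3203 CPM in WT replicate 2. No endothelial, immune or Merkel cell and nerve marker on the lists used reached a mean of 10 CPM.

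Each mature ribosome holds most of these proteins in a single copy, so their synthesis is kept in balance, largely at the level of translation and by breakdown of unassembled protein. In vertebrates their mRNAs commonly begin with a cytosine followed by an unbroken run of pyrimidines, the 5' terminal oligopyrimidine (TOP) motif, through which translation responds to the kinase mTORC1 and the binding protein LARP1. In the epidermis, protein synthesis is known to rise and fall with growth and differentiation, and skin colour in mice can change with the dose of single ribosomal proteins, Rps19 and Rps20 among them, through p53 in keratinocytes.

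To show the TOP motif, 6 members whose annotated start has it are set beside 2 whose annotated start does not, each as the 15 bases before and the 15 bases from the RefSeq start (GRCm38.p6), with the C at the start and its run of pyrimidines in capitals.
Rps6 (small subunit, chr4:86857353-86857382, minus strand): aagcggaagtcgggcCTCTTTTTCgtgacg
Rps10 (small subunit, chr17:27635230-27635259, minus strand): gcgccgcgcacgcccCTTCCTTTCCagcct
Rps27 (small subunit, chr3:90213634-90213663, minus strand): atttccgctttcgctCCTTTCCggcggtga
Rpl15 (large subunit, chr14:18270972-18271001, minus strand): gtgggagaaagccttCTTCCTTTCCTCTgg
Rpl38 (large subunit, chr11:114668565-114668594, plus strand): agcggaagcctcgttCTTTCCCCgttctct
Rplp2 (large subunit stalk, chr7:141447636-141447665, plus strand): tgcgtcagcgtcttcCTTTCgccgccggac
Rpl13a (large subunit, chr7:45128731-45128760, minus strand): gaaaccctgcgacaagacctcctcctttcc
Rplp0 (large subunit stalk, chr5:115559452-115559481, plus strand): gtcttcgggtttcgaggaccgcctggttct

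RefSeq promoters were matched by symbol for 63 of the 82 genes, with 74 annotated starts. A start at C followed by at least 4 pyrimidines was found for 14 of these 63 genes (22.2%), 7 of each subunit, against 3.01% of the 27025 genes in the promoter table. The runs were 5 to 13 bases long, the longest in Rpl15. In Rpl13a a pyrimidine run lies a few bases inside the annotated start, so the count depends on where RefSeq places the start to the base, and a gene without a match at that base is not thereby shown to lack the motif. The letters CCGGAAG, the core that ETS family factors are known to bind, stood on either strand in the 300 bases around the start for 25 of the 63 genes (39.7%), against 9.93% of all genes in the promoter table and 22.3% of the tested genes matched there. TATAAA, searched on both strands, stood in 7 of the 63 (11.1%), against 15.7% of all genes and 8.93% of the tested genes.

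The ribosomal protein genes were among the most abundant mRNAs of the epidermis, but their levels were unequal. Of the 82, 30 had a mean over 1000 CPM, where 110 of all tested genes lay, 45 lay between 100 and 1000 CPM, and 7 under 100 CPM. They held 26 of the first 100 places and 52 of the first 200 places in the ranking of all genes by mean level. The middle part of the members, between the quartiles, ran from 436 to 1108 CPM. The 10 highest took 34.4% of all member counts. Between the highest and the lowest member on the textbook roster the ratio was 76.6.

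The highest level was that of Rplp1 (chr9:61913284-61914542, minus strand), an acidic protein of the stalk that recruits elongation factors to the large subunit, at 4856, 4608 and 4601 CPM in WT replicates 1, 2 and 3 and 4209.9, 4559 and 4456 CPM in the same order in p63alphaKO. Its stalk partner Rplp2 followed among large subunit genes with a range of 2336 to 2704 CPM over the 6 libraries, then Rpl23a at the rim of the peptide exit tunnel (1886 to 2136 CPM) and Rpl37 (1427 to 1808 CPM). In the small subunit Rps26, which lies beside the mRNA exit channel, ranged from 2928 to 3921 CPM, Rps14 from 2850 to 3924 CPM, Rps12 from 2319 to 2770.1 CPM and Rps29 from 1923 to 2740 CPM. Rps26 and Rps14 did not separate from each other beyond their spread, since their ranges overlapped nearly in full.

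At the other end, Rps6, the small subunit protein phosphorylated by S6 kinase downstream of mTORC1, lay at 85.7, 54.0 and 55.4 CPM in WT against 78.2, 50.4 and 32.5 CPM in p63alphaKO. Rpl15, a core protein of the large subunit, lay at 76.4, 53.8 and 47.5 CPM in WT against 101.1, 79.2 and 48.0 CPM in p63alphaKO. Rpl10a, the next lowest on the textbook roster, had a range of 57.0 to 116.6 CPM. Of the genes off the roster, Rps27rt (10.3 CPM), Rps19bp1 (35.5 CPM) and Rpl7l1 (47.3 CPM) had means below that of Rps6 (59.4 CPM). In every library Rps6 and Rpl15 lay far under the medians of their subunits, which over the 6 libraries were 880.2 CPM for the small and 763.9 CPM for the large.

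**Figure D1:**
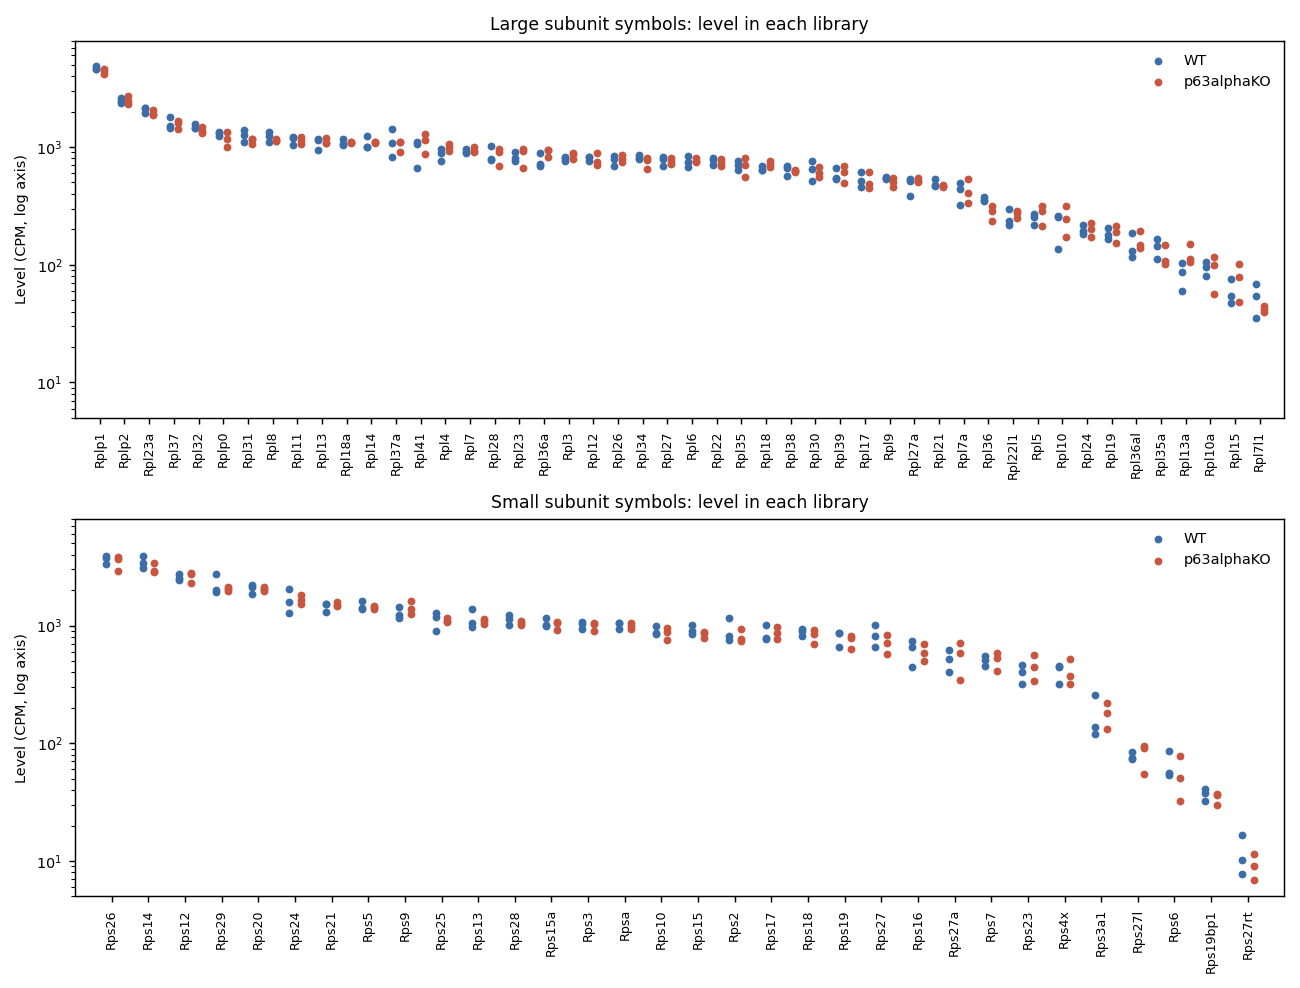
Level of 80 of the 82 genes in each library in CPM on a log axis, large subunit symbols in the upper and small subunit symbols in the lower panel, genes ordered by mean level, WT libraries in blue and p63alphaKO libraries in red. Means run from 4548 CPM (Rplp1) to 10.3 CPM (Rps27rt), and the points of a gene spread more widely at the low end, with 2.59-fold between the libraries of Rps6 and 2.25-fold between those of Rps27rt.

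Between p63alphaKO and WT epidermis, no ribosomal protein gene changed by the test. With limma on log2(CPM + 1) over all 7464 tested genes, 0 of the 82 passed an adjusted p of 0.05, where 1.65% of all tested genes did (0.469% higher and 1.18% lower in p63alphaKO). The smallest adjusted p of a member was 0.231, and at an unadjusted p under 0.05 there were 2 members, Rpl13a and Rpl36, where 15.6% of all tested genes lay. The count was also 0 with edgeR's quasi-likelihood test on the recovered reads, which called 1.1% of all tested genes and gave members a smallest adjusted p of 0.194, and with DESeq2, which called 4.25% of them and gave 0.126. At an unadjusted p under 0.05 each of these tools had 1 member. In a bulk sample, fewer cells of a type and less RNA per cell cannot be told apart, and a level that moved with the total RNA of the cell would not show in CPM.

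The intervals of the members were narrow. The 95% interval of the log2 fold change lay within 2-fold in either direction for 80 of the 82 genes (97.6%), against 65.7% of all tested genes and 88.6% of those at 100 CPM or more. It lay within 1.5-fold for 66 (80.5%), against 19.6% and 51.9%. These sets differ in level, with medians of 809 CPM for the members, 37.4 CPM for all tested genes and 186 CPM for those at 100 CPM or more. The part of level in the widths was not tested. The exceptions to the 2-fold bound were Rpl13a, with an interval of 0.09 to 1.06, and Rps27rt, with -1.20 to 0.64. The fold changes themselves lay within 0.1 log2 units of 0 for 51 genes and within 0.2 for 72, and the largest in size was 0.57.

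The median log2 fold change of the 82 genes was -0.022, with 35 above and 47 below 0, where the median of all tested genes was -0.085 and that of genes at 100 CPM or more was 0.015. The sign of the members' median turned with the scaling: with TMM factors it was 0.085, with 66 above and 16 below 0, and with upper quartile factors 0.11, with 72 above and 10 below, while the median of all tested genes moved to 0.018 and 0.048. A scaling moves members and other genes alike, and relative to the median of all tested genes the members stood at 0.063 as deposited. This distance was not stable: it was 0.141 without WT replicate 1, 0.0186 without WT replicate 3 and 0.0052 with a minimum mean of 50 CPM. Leaving out p63alphaKO replicate 3 also turned the median, to 0.033, with 53 genes above and 29 below 0.

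**Figure D2:**
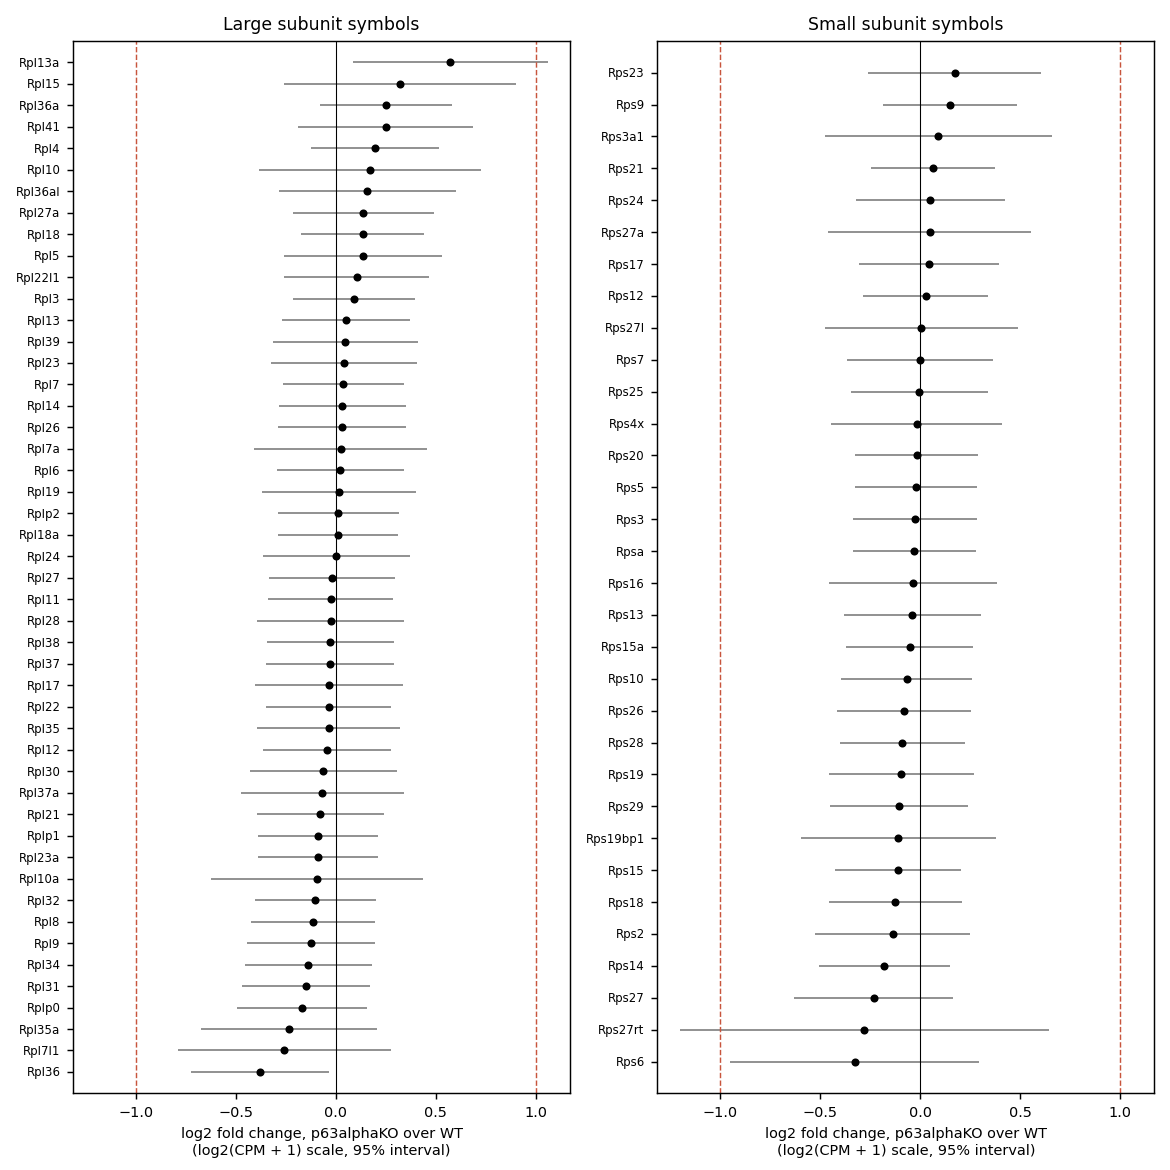
Log2 fold change of 80 of the 82 genes, p63alphaKO over WT (points, log2(CPM + 1) scale), with its 95% interval from limma (lines); dashed lines mark 2-fold. The intervals drawn lie between the dashed lines, except those of Rpl13a and Rps27rt, which each cross one of them.

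**Figure D3:**
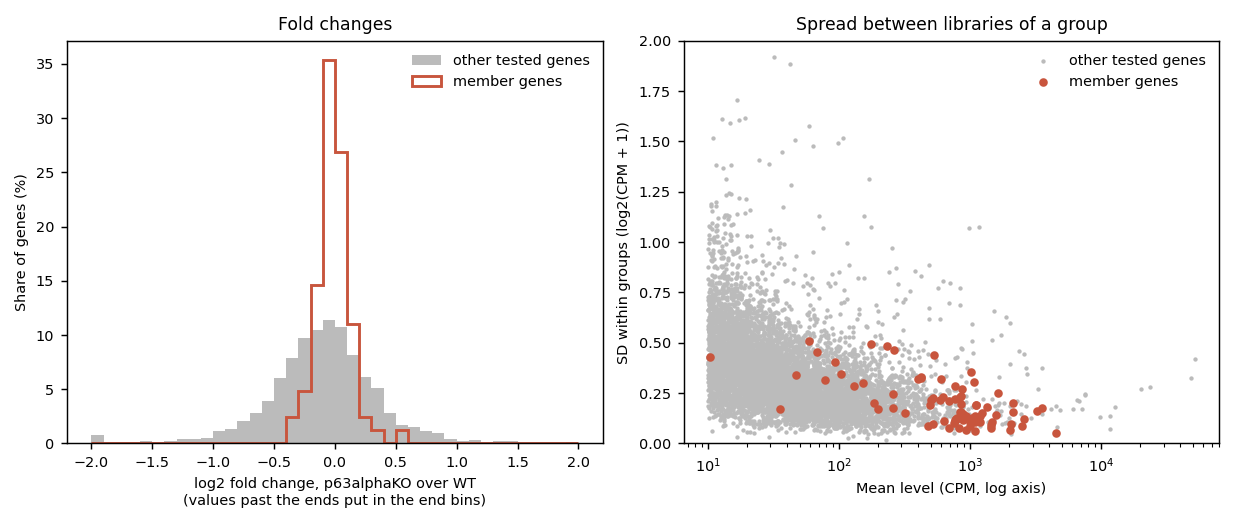
Left, distribution of log2 fold changes of the 82 genes (red outline) and of the other tested genes (grey), in percent of each set. Right, SD between libraries of a group on the log2(CPM + 1) scale against mean level (log axis) for both sets, with a median SD of 0.17 for the members and 0.30 for all tested genes; 14 other genes with an SD above 2 lie off the axis.

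The values of both subunits were close to each other. The median log2 fold change was -0.0081 for the 48 large subunit genes, with 24 above and 24 below 0, and -0.027 for the 34 small subunit genes, with 11 above and 23 below 0. Large subunit genes together took 4.02, 4.08 and 3.92% of the library counts in WT and 4.13, 4.06 and 3.70% in p63alphaKO. Small subunit genes took 3.77, 3.78 and 3.70% in WT and 3.75, 3.79 and 3.40% in p63alphaKO. In both subunits the lowest share was that of p63alphaKO replicate 3, and the other 5 libraries lay close together. The ratio of large to small subunit counts was 1.07 ± 0.011 (SD, n = 3) in WT and 1.09 ± 0.015 (SD, n = 3) in p63alphaKO, with the groups overlapping: 1.068, 1.080 and 1.059 in WT against 1.101, 1.071 and 1.087 in p63alphaKO.

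Both subunits together made up 7.78, 7.86 and 7.62% of the counts in WT (7.76 ± 0.12, SD, n = 3) and 7.88, 7.85 and 7.10% in p63alphaKO (7.61 ± 0.44, SD, n = 3). The groups overlapped, and the difference of -0.149 percentage points was smaller than the SD of the p63alphaKO libraries. It rested on replicate 3 of p63alphaKO, without which it was 0.107. A single RNA, Gm42418, which overlaps ribosomal RNA sequence, took between 3.33 and 6.86% of the counts of a library, most in p63alphaKO replicate 3. With it left out of the totals, an alternative chosen after seeing the data, the member shares were 8.17 ± 0.14 (SD, n = 3) in WT and 8.04 ± 0.36 (SD, n = 3) in p63alphaKO.

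The lower level in p63alphaKO replicate 3 was spread over the members. There, 72 of the 82 genes lay below their own mean over the 6 libraries, 33 had their lowest value and 1 its highest. The median deviation of the members in it was -0.14 log2 units, that of all tested genes -0.13, and that of genes at 100 CPM or more -0.038. In p63alphaKO replicate 1, by contrast, 19 genes lay below their mean and the median deviation was 0.082, and in WT replicate 3 50 genes lay below their mean, with a median of -0.066. The median of all tested genes was 0.027 in p63alphaKO replicate 1 and 0.13 in WT replicate 3. That of genes at 100 CPM or more was 0.036 and 0.022, so in WT replicate 3 the members lay on the other side of 0. The scaling factor of p63alphaKO replicate 3 by TMM was 0.903, against 0.989 to 1.075 in the other 5. Whether RNA quality or another property of this library moved with it was not tested beyond these values.

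**Figure D4:**
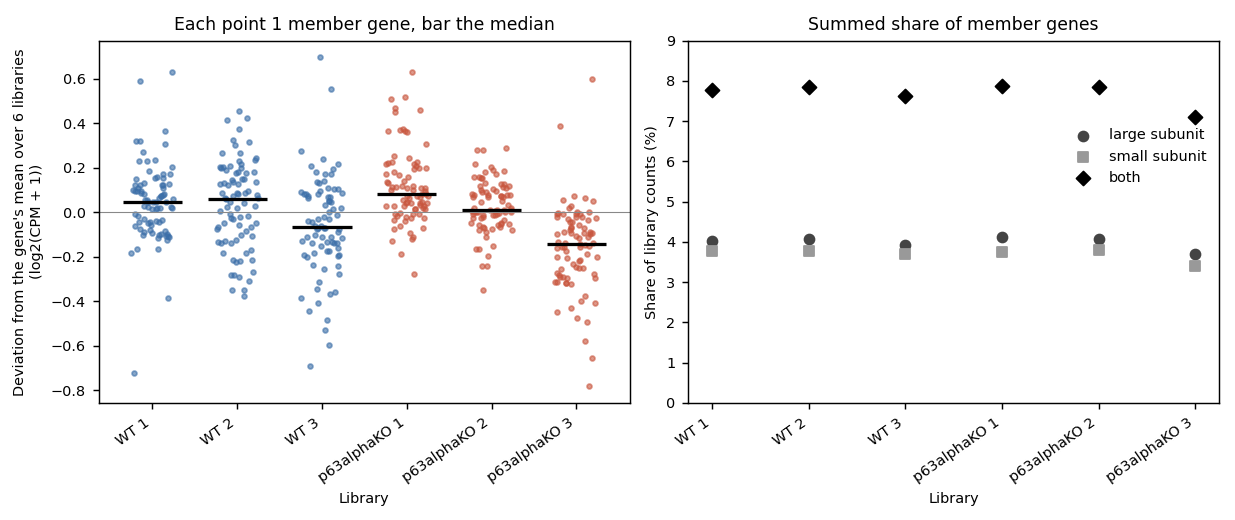
Left, deviation of each of the 82 genes (points) in each library from its own mean over the 6 libraries, on the log2(CPM + 1) scale, with the median as a bar. Right, summed share of library counts (%) of large subunit genes, small subunit genes and both. The p63alphaKO replicate 3 library lies lowest in both panels, with a median deviation of -0.14 and a share of 7.10%.

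Markers of other tissues moved between the groups and are given beside these values. Of 13 fibroblast genes tested, 11 fell in p63alphaKO, and the 15 on the list summed to between 2519 and 5592 CPM in WT and between 480.5 and 855.6 CPM in p63alphaKO. Of 11 skeletal muscle genes tested, 7 fell, from list sums of 504.2 to 3203 CPM to sums of 72.0 to 127.3 CPM. Of 4 globin and red cell genes tested, 3 fell, from sums of 1903 to 3441 CPM to sums of 559.0 to 1769 CPM. The 7 endothelial genes, all under the minimum, summed to 17.3 to 49.9 CPM in WT and 3.66 to 7.86 CPM in p63alphaKO. Melanocyte genes lay the other way, with sums of 200.7 to 331.8 CPM in WT and 343.0 to 480.5 CPM in p63alphaKO, and 0 of 4 tested passed. Mitochondrially encoded RNA took 1.78 to 2.22% of counts in WT and 1.44 to 1.55% in p63alphaKO. The part of these in the member values was not tested.

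The groups did not overlap for 3 members (3.66%), 1 higher and 2 lower in p63alphaKO, where 21% of all tested genes had such groups, 7.6% higher and 13.4% lower. Rpl13a (chr7:45125558-45128761, minus strand), a large subunit protein also known to leave the ribosome in interferon-treated monocytic cells, was read at 59.6, 103.6 and 86.0 CPM in WT against 111.5, 105.4 and 150.3 CPM in p63alphaKO. Every p63alphaKO library lay above every WT library, the nearest by under 2 CPM. The log2 fold change was 0.57 ± 0.23 (SE), with an adjusted p of 0.231 by limma. Rpl36 (chr17:56613416-56614243, plus strand) was read at 355.8, 379.6 and 346.0 CPM in WT against 314.5, 283.9 and 237.4 CPM in p63alphaKO, all lower, with a log2 fold change of -0.38 ± 0.16 (SE) and an adjusted p of 0.274. Rplp1 was the other gene lower in each p63alphaKO library, by -0.089 ± 0.14 (SE) on the log2 scale and with an adjusted p of 0.818.

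Other large subunit genes at the ends of the ranking did not pass the test either. Rpl15 had a log2 fold change of 0.32, Rpl36a 0.25, and Rpl41, the shortest of these proteins, 0.25. Rpl41 lay at 1060.2, 1105 and 661.1 CPM in WT against 1285, 1153 and 877.5 CPM in p63alphaKO, so its groups overlapped. At the low end after Rpl36 stood Rpl7l1 at -0.26, Rpl35a at -0.23 and Rplp0, the scaffold of the stalk, at -0.17. In the small subunit the highest values were those of Rps23 (0.17), Rps9 (0.15), Rps3a1 (0.090) and Rps21 (0.065), and the lowest those of Rps6 (-0.33), Rps27rt (-0.28), Rps27 (-0.23) and Rps14 (-0.18). The adjusted p of each of these genes was at least 0.467.

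By place in the ribosome, the 4 stalk genes Rplp0, Rplp1, Rplp2 and Rpl12 had log2 fold changes between -0.17 and 0.013. Rpl5 and Rpl11, which carry 5S RNA into the large subunit and bind MDM2 when free of it, stood at 0.13 and -0.026. Rpl5 was read at 253.3, 267.5 and 216.6 CPM in WT against 317.9, 288.9 and 211.5 CPM in p63alphaKO, and Rpl11 at 1198, 1044 and 1217 CPM against 1119, 1217 and 1059 CPM. The groups of both overlapped. The 8 genes along the peptide exit tunnel and its rim had a median of -0.0095, 14 genes of the head of the small subunit -0.030, and 18 genes of its body and platform, Fau among them, -0.023. In each of these sets 0 genes passed the test.

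The 18 genes of the set in which loss of a single copy is known to cause Diamond-Blackfan anaemia in humans had a median log2 fold change of -0.022, 6 above and 12 below 0, from -0.23 in Rpl35a to 0.32 in Rpl15, and 0 passed the test. Rps19, the gene most often affected in that disease, was read at 865.0, 652.2 and 863.3 CPM in WT against 822.1, 777.8 and 626.6 CPM in p63alphaKO. Rps20, dominant alleles of which darken mouse skin, was read at 2214, 1870.0 and 2126 CPM against 1967, 2116 and 2040.05 CPM. The ranges overlapped for both, with log2 fold changes of -0.094 and -0.017. Other genes with known roles in the embryo lay near 0 too: Rpl38, whose loss alters the skeleton of the tail-short mouse, at -0.027, Rpl24, mutated in the belly spot and tail mouse, at 0.0027, and Rpsa, which is also known as a laminin receptor precursor, at -0.028.

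The ratios of paralogs to the better known gene of the pair are given next. Rpl22l1 was at 0.333 ± 0.057 (SD, n = 3) of the level of Rpl22 in WT and at 0.363 ± 0.0066 (SD, n = 3) in p63alphaKO. Rpl36al was at 0.188 ± 0.023 (SD, n = 3) of Rpl36a in WT and 0.178 ± 0.029 (SD, n = 3) in p63alphaKO. Rps27l, which is known as a p53 target, was at 0.0966 ± 0.020 (SD, n = 3) of Rps27 in WT and 0.113 ± 0.019 (SD, n = 3) in p63alphaKO. The groups of all 3 ratios overlapped. Rps27l itself was read at 84.6, 74.6 and 73.7 CPM in WT against 90.3, 94.9 and 54.9 CPM in p63alphaKO.

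The spread between libraries of a group was small for most members, with a median SD of 0.17 on the log2 scale against 0.30 for all tested genes and 0.21 for those at 100 CPM or more. It was larger at low levels, and the Spearman correlation of level and SD over the 82 genes was -0.575, given as a description across genes that share the same libraries. For 9 genes the highest library exceeded the lowest by more than 2-fold, among them Rps6 (2.59), Rpl13a (2.50), Rpl10 (2.30), Rps27rt (2.25), Rps3a1 (2.16), Rpl15 (2.10), Rps27a (2.06) and Rpl10a (2.03). In 8 of the 9 the lowest library was WT replicate 3 or p63alphaKO replicate 3, in 5 these were the lowest pair, and in 5 p63alphaKO replicate 1 was the highest. Rpl10, an X-linked gene for a protein added late to the large subunit, showed this order with 256.0, 261.0 and 137.3 CPM in WT against 316.8, 242.6 and 170.9 CPM in p63alphaKO.

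Members shared features of gene structure that bear on how their 3' ends can be counted. Their annotated 3' untranslated regions had a median length of 68 bases, against 1006.5 in all tested genes, and 52 of the 82 were under 100 bases (63.4%, against 5.70%). Coding sequences had a median of 448.5 bases, against 1365. The genes lay on 19 chromosomes, with 14 on chromosome 7. Small nucleolar RNA genes, which guide modification of ribosomal RNA, lay inside 30 of the 82 (36.6%, against 2.22% of tested genes), 58 in all, with 5 in Rpl4 and 4 in Rpl13a.

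The last 200 bases of a single annotated transcript per member were read in overlapping windows of 50 bases. It was chosen from the annotation and not from the reads, and whether the counted ends lie there was not tested. A median of 48.3% of a member's windows were found letter for letter in an annotated transcript of another gene, against 0% for all tested genes. Any such sharing was found for 57 members (69.5%, against 11.8%), and with a pseudogene for 52 (63.4%, against 2.64%). Rps2 and Rpl7a shared with 40 pseudogenes each, Rps12 with 21 and Rps6 with 10. Reads from such stretches can be dropped or split by the counting, so the CPM of these genes is uncertain as an absolute level. The part of this in the unequal levels was not tested.

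The 25 genes with no shared window had a median level of 857.4 CPM, the 16 with less than 50% of windows shared 1137 CPM, and the 41 with 50% or more 763.3 CPM. Of the 13 genes under 200 CPM, 8 were in the last of these sets. The Spearman correlation of level and percent of windows shared was -0.139 over the 82 genes, as a description. Rps6 shared 72.2% of its windows, Rpl15 66.2% and Rpl10a 78.8%, while Rpl13a, at a mean of 102.7 CPM, shared none. The annotated 3' untranslated region of Rpl13a has 388 bases, so its windows did not reach the coding sequence. On the same strand 3 genes overlap Rpl13a. The part of sharing or overlap in these levels was not tested. The median log2 fold change of the 25 unshared genes was -0.017 and that of the 41 was 0.0027. A gene on the same strand overlapped 28 members (34.1%, against 8.19% of tested genes). One on the other strand overlapped 19 (23.2%, against 32.1%), Rpl15 and Rpl10a among them. No source used here says whether the authors' counting used the strand.

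The 14 genes whose annotated start has the TOP motif had a median log2 fold change of -0.044, from -0.33 in Rps6 to 0.32 in Rpl15, both among the starts shown above, and the 49 matched genes with another start -0.0015. Their median levels were 807.0 and 767.8 CPM. A run that begins off the annotated base was not counted, so the 49 can include genes with the motif. These values therefore do not compare mRNAs with and without it. Of 20 tested genes for other proteins known from TOP mRNAs, 0 passed the test, with a median of 0.0081. Eef2, which moves the ribosome along the mRNA, was read at 1388, 1297 and 1235 CPM in WT against 1417, 1576 and 1460.2 CPM in p63alphaKO. Its log2 fold change was 0.18, with an adjusted p of 0.588. The fusion gene Fau and the ribosome-bound scaffold Rack1 stood at -0.15 and -0.044.

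In the wider translation apparatus, 1 gene rose: Eif4e, for the protein that binds the mRNA cap and brings mRNA to the small subunit. It was the only call among 35 tested initiation factors, where 1.65% of all tested genes were called, 0.469% higher. It was read at 123.1, 111.9 and 74.3 CPM in WT against 187.7, 191.9 and 225.2 CPM in p63alphaKO, so that every p63alphaKO library lay above every WT library. The log2 fold change was 0.99 ± 0.21 (SE), or 1.98-fold, with an adjusted p of 0.0254. The call was lost with edgeR (adjusted p = 0.0523) and without p63alphaKO replicate 1, 2 or 3 (0.092, 0.0847 and 0.175), while the adjusted p was 0.00153 with DESeq2. Eif4e lies on the plus strand of chr3:138526179-138559696 (GRCm38), with 1 other gene overlapping on the same strand and no shared window in its tail.

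The other 34 initiation factors did not pass the test. Of them Eif4h, a helper of the helicase eIF4A, stood at 0.41, with 226.0, 198.1 and 137.9 CPM in WT against 254.4, 234.4 and 244.0 CPM in p63alphaKO and no overlap of the groups. The helicase gene Eif4a2 stood at -0.65, with 50.3, 40.6 and 31.2 CPM in WT against 31.9, 30.9 and 15.8 CPM in p63alphaKO, and its groups overlapped. Their adjusted p-values were 0.319 and 0.304. Of 9 elongation and termination factors tested 0 passed, and the median of the initiation factors was 0.047, with 22 of 35 above 0.

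Of 45 tested genes for ribosome assembly, 0 passed, with a median of -0.017, 20 above and 25 below 0. The smallest adjusted p was that of Tsr1, which acts in the maturation of the small subunit, at 0.222. It was read at 51.8, 33.7 and 35.6 CPM in WT against 26.3, 27.7 and 21.5 CPM in p63alphaKO, all lower, and its log2 fold change was -0.64. Nop56, a core protein of box C/D small nucleolar particles, stood at -0.44 with non-overlapping groups and an adjusted p of 0.332. Of 68 tested genes for proteins of the mitochondrial ribosome, a list made by symbol after member values were seen, 0 passed, with a median of -0.21 and 50 below 0. Of all 7464 tested genes 4462 lay below 0, with a median of -0.085. The median level of the 68 genes was 25.3 CPM, against 37.4 CPM for all tested genes.

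Of 12 tested genes of growth control upstream of the ribosome, 1 rose: Deptor, an inhibitor bound to mTOR complexes. It was the only call among the 12, where 1.65% of all tested genes were called, 0.469% higher. It was read at 60.0, 43.5 and 42.8 CPM in WT against 79.1, 99.0 and 97.8 CPM in p63alphaKO, with a log2 fold change of 0.91 ± 0.21 (SE) and an adjusted p of 0.0448. The call was lost with edgeR (0.0537), with no filter on low values (0.0592), with a minimum mean of 50 CPM (0.0568) and without any library other than WT replicate 1 (0.0833 to 0.198). Deptor lies at chr15:55112317-55259271 and overlaps 1 gene on the other strand. The remaining 11 genes of this list, Akt1 and Eif4ebp2 among them, did not pass.

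Genes of the p53 response, the pathway through which free Rpl5 and Rpl11 are known to act, did not pass the test, 0 of 13. Their median log2 fold change was 0.029, with 7 above and 6 below 0, from -1.10 to 0.93. At an unadjusted p under 0.05, 4 of the 13 were higher in p63alphaKO and 0 lower, where 450 of the 7464 tested genes were higher and 716 lower. The groups did not overlap for 2 of the 13 (15.4%), 2 higher and 0 lower in p63alphaKO. Of all tested genes 21% had such groups, 7.6% higher and 13.4% lower. The 2 were Cdkn1a and Trp53inp1. Cdkn1a, the cell cycle inhibitor p21, was read at 1271, 1497 and 1540 CPM in WT against 1736, 1882 and 1566 CPM in p63alphaKO. Trp53inp1 was read at 23.0, 37.1 and 46.3 CPM in WT against 64.7, 46.6 and 49.8 CPM in p63alphaKO. Mdm2, the ubiquitin ligase that removes p53, was read at 45.6, 69.2 and 33.7 CPM in WT against 59.0, 127.0 and 100.5 CPM in p63alphaKO, with a log2 fold change of 0.93 and an adjusted p of 0.128. The adjusted p of Mdm2 was 0.0351 with DESeq2, 0.136 with edgeR and 0.0655 to 0.423 with 1 library left out. Pmaip1 and Bbc3, which promote cell death, stood at 0.92 and 0.84 with adjusted p of 0.186 and 0.264, and their groups overlapped. Without WT replicate 1 the adjusted p of Pmaip1 was 0.0283. No other alternative called Mdm2 or Pmaip1. With 1 library left out, the log2 fold change of Pmaip1 ran from 0.57 to 1.34.

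**Figure D5:**
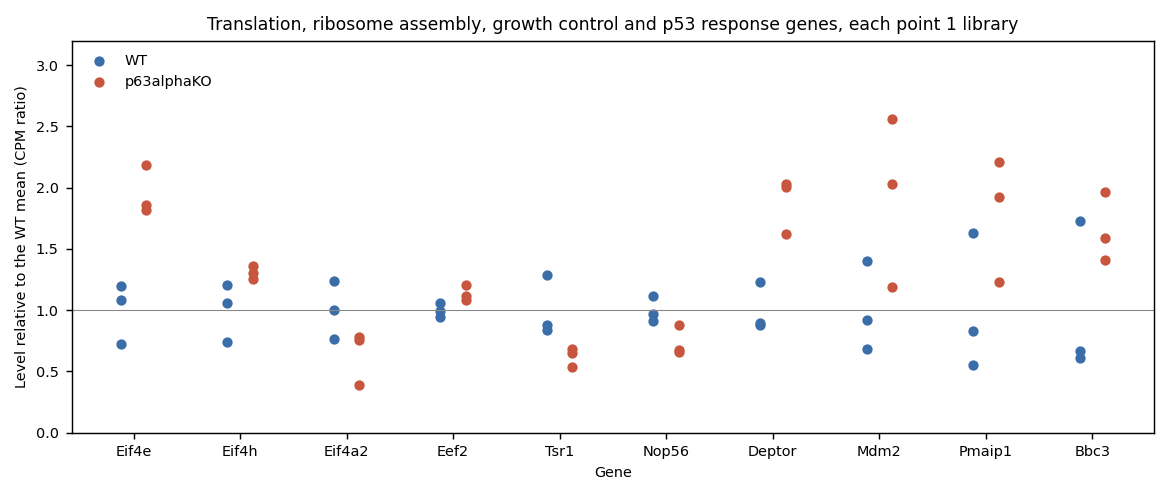
Level of 10 genes of translation, ribosome assembly, growth control and the p53 response in each library (points), divided by the gene's WT mean, WT in blue and p63alphaKO in red. The p63alphaKO points of Eif4e, Eif4h, Eef2 and Deptor lie above all WT points, and those of Tsr1 and Nop56 below them. Those of Eif4a2, Mdm2, Pmaip1 and Bbc3 overlap with WT. Of the genes drawn, Eif4e and Deptor passed the limma test, and 21% of all tested genes had groups that did not overlap.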

How the data were processed

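The deposited table holds CPM in 6 columns, each scaled by the authors to its library's sum. STAR, HTSeq and mm10 are named without versions in the submitters' processing notes, while the annotation, the strand setting and, since the label fields differ, the RNA kit are not settled by the sources used here. All values (100%, within 0.0055 CPM) were whole multiples of what 1 read is worth, which gave the reads per library. A mean of 10 CPM is 25.7 to 44.8 reads.

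Differences were tested with limma-trend 3.58.1 (R 4.3.3) on log2(CPM + 1), a pseudocount of 1, two-sided, over the 7464 genes averaging 10 CPM or more, with Benjamini-Hochberg adjustment over all of them. Fold changes are given on that scale as p63alphaKO over WT and understate changes of low genes. It called 123 genes, 35 higher and 88 lower. On the recovered reads edgeR 4.0.16 called 82 and DESeq2 1.42.0 called 317. Sums over members, shares and ratios got no p, and the smallest p that an exact permutation test of 3 libraries against 3 allows is 0.1. The script was tested on simulated data.

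The members and the lists were chosen with earlier results of these data known. Genes were named by rule: called genes, the 4 highest and 4 lowest fold changes and the 4 highest and 2 lowest levels per subunit, paralogs, up to 3 genes of smallest p per functional list, and examples of known roles. Genes named outside it, for the spread between libraries, gene structure, place in the ribosome or groups that do not overlap in the p53 list, were chosen after their values were seen. Some genes are not reported here by name. Transcripts, positions and overlaps are from GENCODE M21 (GRCm38), where 99.9% of the gene IDs were found, and starts from RefSeq (GRCm38.p6). Alternatives were another pseudocount (0.5 or 5), no filter or a minimum mean of 50 CPM, TMM or upper quartile factors, edgeR, DESeq2, the replicate number as a block, each library left out and the textbook roster. Leaving Gm42418 out of the totals was added after seeing the data.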

Additional observations from a re-analysis of the deposited data

How the results depend on the processing

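The count of members called was 0 under every alternative, with a smallest adjusted p between 0.126 and 0.415. The count over all genes was 36 with a minimum mean of 50 CPM and 317 with DESeq2, and with 1 library left out it ran from 37 (without p63alphaKO replicate 3) to 186 (without WT replicate 1), with 46 and 67 without p63alphaKO replicates 1 and 2. Higher genes made up 28.5% of the calls, 42.5% with TMM factors, 51.9% with upper quartile factors and 47.9% with DESeq2, and 13%, 8.96% and 8.11% without p63alphaKO replicate 1, 2 or 3. The cause of the larger count with DESeq2 was not tested. The median log2 fold change of large subunit genes was 0.098 with TMM factors, 0.13 with upper quartile factors and 0.084 with DESeq2. That of small subunit genes was 0.080 with TMM factors and 0.11 with upper quartile factors. Left-out libraries gave -0.060 to 0.054 for the large and -0.095 to 0.017 for the small subunit genes, -0.284 to 0.107 percentage points for the share and 0.0104 to 0.0252 for the ratio.

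Of the 557 alternative values of named members, 483 kept their sign and 74 turned it, none with a call. With TMM factors the turned values were Rpl11 0.081, Rpl12 0.061, Rpl23a 0.017, Rpl37 0.078, Rpl38 0.079, Rplp1 0.018, Rps19 0.013, Rps20 0.089, Rps26 0.027, Rps29 0.0012 and Rpsa 0.078. With upper quartile factors they were Rpl11 0.11, Rpl12 0.091, Rpl23a 0.047, Rpl37 0.11, Rpl38 0.11, Rplp1 0.047, Rps19 0.043, Rps19bp1 0.025, Rps20 0.12, Rps26 0.057, Rps29 0.031 and Rpsa 0.11. With edgeR they were Rpl11 0.051, Rpl12 0.035, Rpl37 0.045, Rpl38 0.053, Rps20 0.059, Rps26 0.011 and Rpsa 0.052. With DESeq2 they were Rpl11 0.066, Rpl12 0.049, Rpl23a 0.0069, Rpl37 0.059, Rpl38 0.068, Rplp1 0.0062, Rps20 0.074, Rps26 0.027 and Rpsa 0.067. These alternatives differ from CPM in the library scaling. With 1 library left out, values ran from -0.096 to 0.021 for Rpl11, -0.14 to 0.020 for Rpl12, -0.096 to 0.11 for Rpl24, -0.091 to 0.064 for Rpl37, -0.12 to 0.028 for Rpl38, -0.043 to 0.063 for Rplp2, -0.015 to 0.11 for Rps12, -0.23 to 0.023 for Rps19, -0.089 to 0.033 for Rps20, -0.011 to 0.11 for Rps21, -0.0071 to 0.36 for Rps23, -0.15 to 0.041 for Rps26, -0.14 to 0.25 for Rps27l, -0.50 to 0.00088 for Rps27rt, -0.20 to 0.055 for Rps29, -0.13 to 0.43 for Rps3a1, -0.085 to 0.012 for Rpsa and -0.34 to 0.010 for Eif4ebp2.

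The shared replicate numbers did not pair the libraries: deviations of same-numbered libraries correlated at -0.023, 0.066 and -0.11 over genes, and not every library correlated best with its own number. With the replicate number as a block, 127 genes and 0 members were called, Eif4e kept its call (adjusted p = 0.0348) and that of Deptor was lost (adjusted p = 0.0752). Members under 100 CPM had a median SD within groups of 0.41 on the log2 scale, and their median deviation ran from -0.47 in p63alphaKO replicate 3 to 0.22 in p63alphaKO replicate 1.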
